A study of Mus musculus with 2 samples.

Results

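The genes described here encode the mitochondrial respiratory chain and its ATP synthase. They were chosen by symbol: every gene whose name starts with Nduf, Uqcr, Cox4, Cox5, Cox6, Cox7, Cox8, Atp5 or mt-, leaving out names with -ps or Rik, without use of any measured value. This gave 102 of the 32285 genes listed in the count tables. Of these, 36 encode subunits of complex I, 8 are complex I assembly factors, 8 belong to complex III, 20 to complex IV, 17 to complex V, and 13 are encoded by the mitochondrial genome. Ndufa4 and Ndufa4l2 were counted with complex IV, where their proteins are known to sit. All 102 were protein-coding in the GENCODE M21 annotation.

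The study measured single-cell RNA of fetal liver blood progenitors, sorted as Lineage-negative and c-Kit-positive at E14.5, in 1 library per genotype. Both groups were C57BL/6, CD45.2-positive and homozygous for a floxed Brd9 allele (Brd9fl/fl). The knockout group also carried Vav1-iCre, a transgene that expresses Cre recombinase from a promoter active in blood cells, and the control group carried no Cre. An effect of Brd9 loss and an effect of Cre itself cannot be told apart, because no library with Cre alone was among the samples. The number of embryos per library was not given in the sources used here. Brd9 is a subunit of a SWI/SNF chromatin remodelling complex.

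The respiratory chain passes electrons from NADH and succinate to oxygen through complexes I to IV, pumps protons across the inner mitochondrial membrane, and lets complex V make ATP from the gradient. Its subunits come from 2 genomes: the mitochondrial genome encodes core subunits of complexes I, III, IV and V on long polycistronic transcripts, and nuclear genes encode all other subunits. In red cell development, progenitors first build up mitochondria, which also make heme, and cells remove them at the end of maturation. Nuclear factors such as NRF1, GABP and YY1 are known to bind promoters of many respiratory chain genes.

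Promoters of 4 nuclear genes are shown because the results below turn on them: Cox6b2, the nuclear gene with the largest genotype difference, Cox6b1, its broadly expressed paralog, and Cox8a and Uqcr11, which lay on opposite sides of 0 in each cell class. Each runs 5′ to 3′ on the gene's strand, from 250 bases before to 50 after the start in RefSeq (GRCm38.p6), and capitals mark matches to the motifs GCATGCGC (NRF1), CCGGAAGT (GABP) or AAGATGGCG (YY1), searched on both strands. Cox6b2 lies at chr7:4753045-4753344, Cox6b1 at chr7:30626065-30626364, Cox8a at chr19:7217567-7217866 and Uqcr11 at chr10:80406772-80407071, all on the minus strand.
Cox6b2: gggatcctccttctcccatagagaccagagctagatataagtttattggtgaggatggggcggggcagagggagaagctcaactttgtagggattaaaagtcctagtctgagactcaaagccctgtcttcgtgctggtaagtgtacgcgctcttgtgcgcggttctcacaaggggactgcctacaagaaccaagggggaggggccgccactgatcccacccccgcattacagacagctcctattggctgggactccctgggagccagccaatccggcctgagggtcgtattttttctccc
Cox6b1: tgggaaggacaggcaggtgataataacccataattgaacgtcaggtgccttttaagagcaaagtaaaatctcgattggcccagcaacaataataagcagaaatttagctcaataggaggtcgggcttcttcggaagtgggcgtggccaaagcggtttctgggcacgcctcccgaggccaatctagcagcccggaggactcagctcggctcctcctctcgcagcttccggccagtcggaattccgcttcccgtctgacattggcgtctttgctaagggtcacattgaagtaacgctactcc
Cox8a: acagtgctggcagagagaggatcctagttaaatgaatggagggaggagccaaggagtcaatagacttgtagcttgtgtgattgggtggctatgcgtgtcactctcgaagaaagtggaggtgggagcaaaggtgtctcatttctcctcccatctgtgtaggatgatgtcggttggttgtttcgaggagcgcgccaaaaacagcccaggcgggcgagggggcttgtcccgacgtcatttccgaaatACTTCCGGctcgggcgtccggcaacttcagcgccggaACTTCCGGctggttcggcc
Uqcr11: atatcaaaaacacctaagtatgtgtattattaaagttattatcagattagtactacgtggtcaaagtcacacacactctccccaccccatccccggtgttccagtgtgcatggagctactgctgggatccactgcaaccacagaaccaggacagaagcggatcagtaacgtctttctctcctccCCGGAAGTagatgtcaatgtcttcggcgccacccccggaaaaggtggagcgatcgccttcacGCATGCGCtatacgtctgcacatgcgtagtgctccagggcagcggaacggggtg

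The Cox8a promoter held 2 GABP matches, starting at bases 245 and 282 of the printed run. That of Uqcr11 held a GABP match at base 185 and an NRF1 match at base 247, and was the only one of the 73 matched promoters with more than 1 of the 3 motifs. Neither Cox6b2 nor Cox6b1 held a match in this window. The 300 bases of Cox6b2 held 10 CpG pairs, against 17 in Cox6b1, 19 in Cox8a and 16 in Uqcr11. RefSeq promoters were matched for 73 of the 89 nuclear members. Among them, 11 (15.1%) held the NRF1 motif, against 3.05% of 27025 genes, 5 (6.85%) the GABP motif, against 4.31%, and 8 (11%) the YY1 motif, against 1.64%. The 27025 genes were all those with a listed promoter, not matched to the members for expression or gene type. A match describes letters in this window and is not a binding site.

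After filtering, 6725 knockout and 6843 control cells were kept, with a median of 35975 and 38473 transcripts counted by unique molecular identifiers (UMIs) per cell. Brd9 was at 7.04 counts per 1000000 UMIs (CPM) in knockout and 27.2 CPM in control cells, lower in each of the 5 cell classes compared. Which Brd9 exons are floxed was not given in these sources. Female cells made up 59% of the knockout and 23% of the control library, so values within each sex are given where they bear on a result. The libraries shared 14 barcodes among kept cells. Cells were clustered without the members, so the cell classes do not depend on them, and were named from marker genes: HSC/MPP (stem and multipotent progenitor-like, 170 cells in each library), MEP (megakaryocyte-erythroid progenitor-like, 411 knockout and 265 control), erythroid-like (4940 and 4982), GMP and neutrophil-like (260 and 400), and monocyte and dendritic-like (203 and 312). Their defining markers were present: 13 of 13 HSC/MPP markers reached 5 CPM in the HSC/MPP class, at a summed 3163 and 3099 CPM against 170.4 and 179.4 in erythroid cells. Erythroid cells were split into 3 groups of equal size by the share of their UMIs from the alpha-globin genes Hba-a1 and Hba-a2, called early (below 0.0256%), intermediate and later (above 0.188%). Each is a range of a score and not a cell type, and 680 of the 9922 erythroid cells lay within 10% of a boundary.

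Transcripts from the mitochondrial genome were lower in the knockout, and the nuclear genes as a group were not. In all kept cells, the 13 mitochondrially encoded genes took 2.34% of UMIs in knockout and 2.74% in control cells, a log2 ratio of -0.23 with a 95% interval of -0.23 to -0.22. The nuclear members took 3.13% and 3.08%, a log2 ratio of 0.02 (0.02 to 0.02) that was -0.004 when scaled by the median of gene ratios. All intervals here cover counting error only, and with 1 library per genotype the difference has no replicate check and no p-value. Per cell this was 880.2 mitochondrially encoded UMIs in knockout and 1095 in control cells. Put as a ratio of mitochondrial to nuclear respiratory chain UMIs, the values were 0.748 and 0.889.

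**Figure D1:**
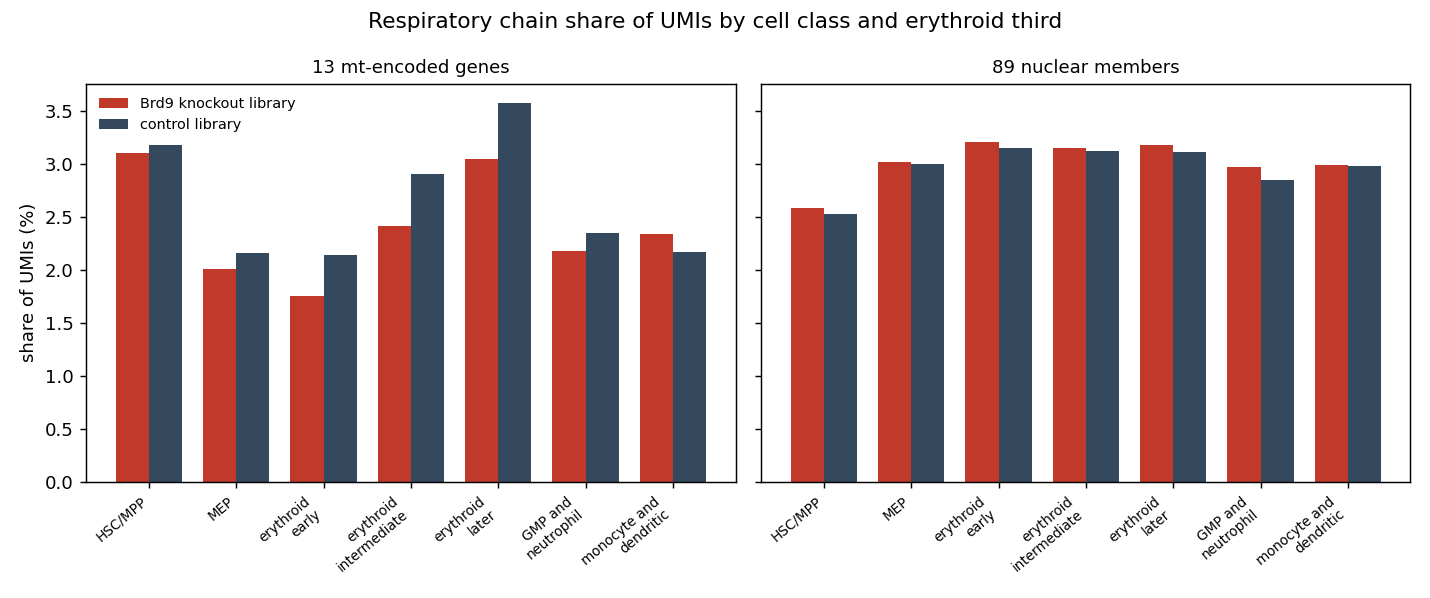
Share of all UMIs (percent) taken by the mitochondrially encoded genes and by the nuclear members, by cell class and erythroid group. Each library has 1 bar. The erythroid mitochondrial share was 2.37% in knockout and 2.84% in control cells, while the nuclear share differed little between libraries in each class.

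The nuclear complexes lay close together. Complex I subunits took 0.871% of UMIs in knockout and 0.862% in control cells, complex III 0.336% and 0.335%, complex IV 0.848% and 0.833%, and complex V 1.03% and 1%. Their log2 ratios ran from 0.004 for complex III to 0.03 for complex V, and the interval for complex III, -0.001 to 0.008, held 0. Of the 102 members, 94 reached 20 CPM in either library and 8 did not. Among the 81 nuclear members at that level, 61 were higher and 20 lower in the knockout with a median log2 ratio of 0.03, the same median as over all 6223 genes tested, of which 4050 were higher and 2173 lower. The nuclear members thus followed the whole table, and 3 of the 13 mitochondrial genes were higher and 10 lower, with a median of -0.21.

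A member was counted as different where its log2 ratio went past 0.25. Over whole libraries, 0 of 94 members were higher by that rule, against a background of 2.19% of all genes tested, and 3 were lower, Cox6b2, mt-Co3 and mt-Cytb, against 2.27%. In erythroid cells 0 were higher (background 2.62%) and 7 were lower (background 2.37%): Cox6b2 and 6 mitochondrial genes, mt-Nd1, mt-Nd2, mt-Co2, mt-Co3, mt-Nd4 and mt-Cytb. Lower calls numbered 8 in early (background 2.32%), 7 in intermediate (2.53%) and 4 in later erythroid cells (2.48%), with 0 higher in each (backgrounds 2.5%, 3.32% and 3.42%). Cox6b2, mt-Nd1, mt-Co3 and mt-Cytb were among the lower calls of all 3 groups.

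**Figure D2:**
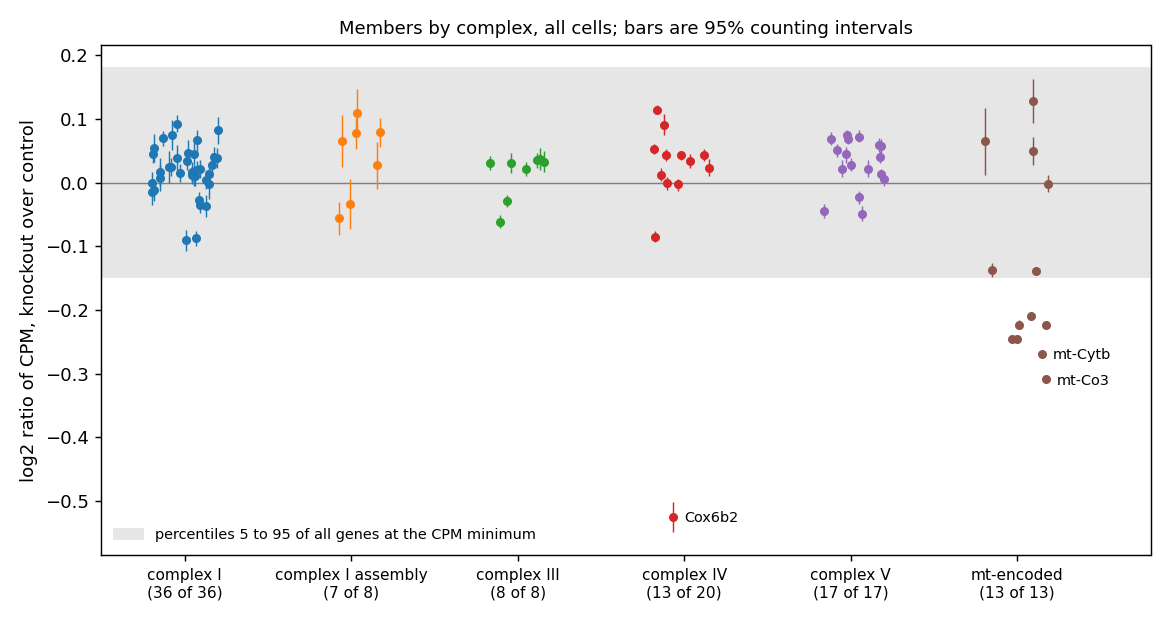
Log2 ratio of knockout over control CPM for each member at 20 CPM or more in either library, over all kept cells, grouped by complex. The grey band spans percentiles 5 to 95 of all genes tested (-0.149 to 0.18), and members past 0.25 are labelled. Most nuclear members sit within 0.1 of 0, Cox6b2 stands at -0.53, and 10 of 13 mitochondrial genes lie below 0.

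The 13 mitochondrial genes differed by unequal amounts. The complex IV gene mt-Co3 was at 3829 CPM in knockout and 4742 CPM in control cells (log2 ratio -0.31, -0.31 to -0.31), and mt-Cytb, the catalytic cytochrome b of complex III, at 2396 and 2887 CPM (-0.27). Of the complex I subunits, mt-Nd1 was at 1854 and 2196 CPM (-0.245), mt-Nd2 at 1166 and 1360 CPM, and mt-Nd4 at 1487 and 1736 CPM (-0.22 for each of the last pair). The other complex IV genes were mt-Co2, which carries the copper centre that takes electrons from cytochrome c, at 3299 and 3909 CPM (-0.245), and mt-Co1, the catalytic subunit, at 3452 and 3801 CPM (-0.14). The proton channel subunit of ATP synthase, mt-Atp6, was at 4948 and 5720 CPM (-0.21), and mt-Nd3 was at 460.6 and 506.5 CPM (-0.14).

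The remaining 4 mitochondrial genes lay near or above 0. For mt-Nd5 the values were 335.5 CPM in knockout and 335.9 CPM in control cells, and for mt-Nd4l 128.9 and 124.6 CPM (0.05). For mt-Nd6, the one subunit gene read from the opposite strand, they were 22.9 and 21.9 CPM (0.07, 0.01 to 0.12), and for mt-Atp8 55.4 and 50.6 CPM (0.13, 0.09 to 0.16). Each of these 4 overlaps a neighbour on the mitochondrial genome (mm10): mt-Atp8 (chrM:7766-7969) runs into mt-Atp6 (chrM:7927-8607), mt-Nd4l (chrM:9877-10173) into mt-Nd4 (chrM:10167-11544), and mt-Nd5 (chrM:11742-13565) into mt-Nd6 (chrM:13552-14070). The split of reads between such neighbours is uncertain where they share a strand, as mt-Nd5 and mt-Nd6 do not. Counts shared with nuclear copies of mitochondrial or respiratory chain sequences are uncertain too.

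**Figure D3:**
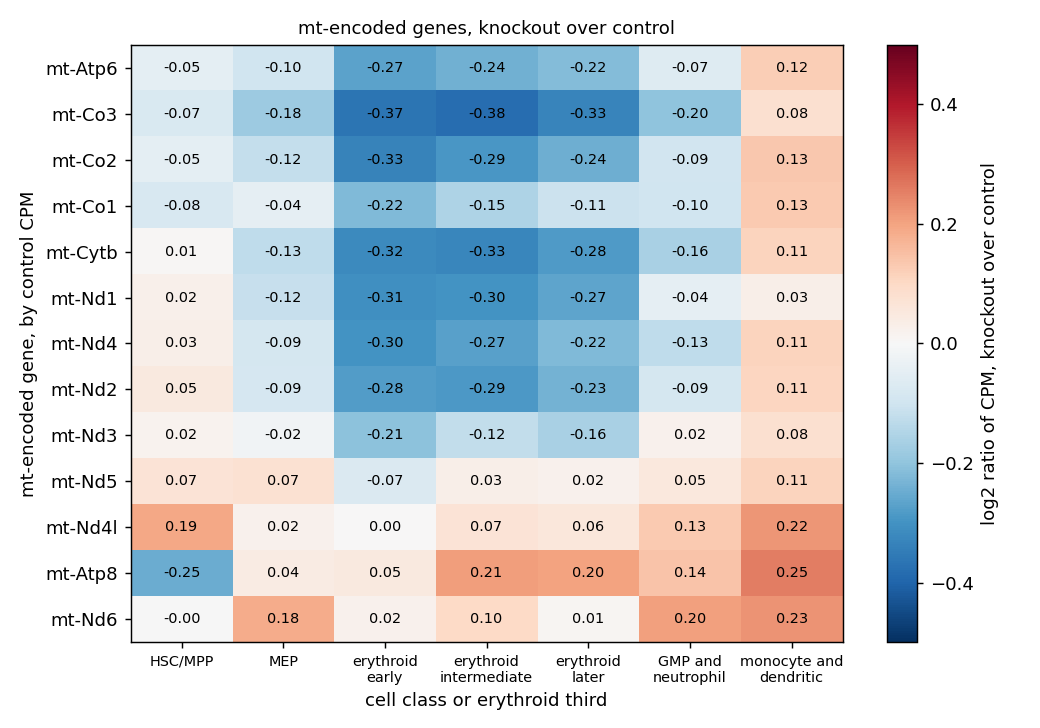
Log2 ratio of knockout over control for each mitochondrially encoded gene, by cell class and erythroid group, as a colour map with the ratios printed. The ratios run from -0.37 to 0.05 in early, -0.38 to 0.21 in intermediate and -0.33 to 0.20 in later erythroid cells. In the monocyte and dendritic class all 13 are above 0.

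The lower mitochondrial share was found in erythroid cells and was smaller, or turned, in other classes. Erythroid cells had 2.37% in knockout and 2.84% in control cells (log2 ratio -0.27). The MEP class had 2% and 2.16% (-0.11, -0.12 to -0.10), the GMP and neutrophil class 2.18% and 2.35% (-0.11, -0.12 to -0.10), and the HSC/MPP class 3.1% and 3.18% (-0.04, -0.05 to -0.02). Monocyte and dendritic cells went the other way, at 2.34% and 2.17% (0.11, 0.10 to 0.12), with 13 of 13 mitochondrial genes higher in the knockout as a share of UMIs. Knockout cells of this class were shallower, with a median of 29819 UMIs against 35446, and had fewer mitochondrially encoded UMIs per cell, 703 against 788.7, so the direction held for the share and not per cell. Differences between classes have no test, since each rests on the same pair of libraries. Within sexes the erythroid value was -0.26 in female and -0.27 in male cells. The GMP and neutrophil value split by sex, at 0.10 in female cells (131 knockout and 58 control) and -0.15 in male cells (121 and 339), and the monocyte and dendritic value was 0.18 in female and 0.01 in male cells. Cells of the neutrophil cluster led by S100a8, S100a9 and Camp made up 36 of the 260 knockout and 133 of the 400 control cells of the GMP class. The other cluster of the class (224 and 267 cells) was led by the eosinophil markers Prg2 and Prg3. Eosinophil markers summed to 216.4 and 257.6 CPM in the class. The part of this mix of cells in the mitochondrial value and in other ratios of the class was not tested.

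Inside the erythroid class the difference was found in every subset examined. The mitochondrial share was lower in the knockout in 15 of 15 erythroid clusters, with log2 ratios from -0.34 to -0.07 and every interval below 0. It was also lower in each of 4 equal groups of erythroid cells ordered by UMIs per cell, from -0.32 to -0.28. Nuclear members in the same clusters ran from -0.04 to 0.06. All these subsets are parts of the same pair of libraries, so their shared direction is not a replicate check. At Leiden resolution 1.6 some erythroid clusters came mostly from 1 library, such as 599 knockout and 45 control cells in 1 cluster and 30 and 329 in another. Knockout erythroid cells had a median of 38988 UMIs and control cells 41200 UMIs. The early group had a mitochondrial share of 1.75% in knockout and 2.14% in control cells (-0.29), the intermediate group 2.42% and 2.91% (-0.27), and the later group 3.05% and 3.58% (-0.23). Cells above 10% mitochondrial UMIs were left out, 153 in the knockout (2.1% of barcodes, median 5217 UMIs) and 174 in the control (2.35%, median 5680 UMIs), and with these kept the whole-library log2 ratio was -0.227 in place of -0.225.

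Cox6b2 was the nuclear member with the largest genotype difference. It encodes a form of complex IV subunit 6B best known from testis, and Cox6b1 encodes the common form. Over all kept cells, Cox6b2 was at 90.4 CPM (95% interval 89.3 to 91.6) in the knockout and 130.1 CPM (128.8 to 131.5) in the control, a log2 ratio of -0.53 (-0.55 to -0.50). It was lower in 15 of 15 erythroid clusters of the same pair of libraries, from -0.71 to -0.31. Female cells gave -0.52 and male cells -0.52. With each cell thinned to 10000 UMIs, 62.1% of knockout and 75.3% of control erythroid cells had a Cox6b2 UMI, against 0.55% and 0.767% for Alb, a hepatocyte gene that these cells should lack.

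The level of Cox6b2 also depended on the cell class. It was at 102.2 and 151.1 CPM in erythroid cells (-0.56), 58.2 and 74.9 CPM in the MEP class (-0.36), 33 and 53.4 CPM in the GMP and neutrophil class (-0.69), 49.9 and 57 CPM in the HSC/MPP class (-0.19, -0.50 to 0.11) and 20.3 and 22.7 CPM in the monocyte and dendritic class (-0.16, -0.48 to 0.16). The last pair of intervals held 0, and in female HSC/MPP cells the ratio was 0.01 (-0.53 to 0.57). Its paralog Cox6b1 was at 592.3 and 587.2 CPM over all cells (0.01). Cox6b2 lies at chr7:4751792-4753094 on the minus strand (mm10). Of 11 other genes tested within 1 Mb of it, 0 went past 0.25, with log2 ratios from -0.19 for Epn1 to 0.13 for Tmem238, and none overlapped it.

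**Figure D4:**
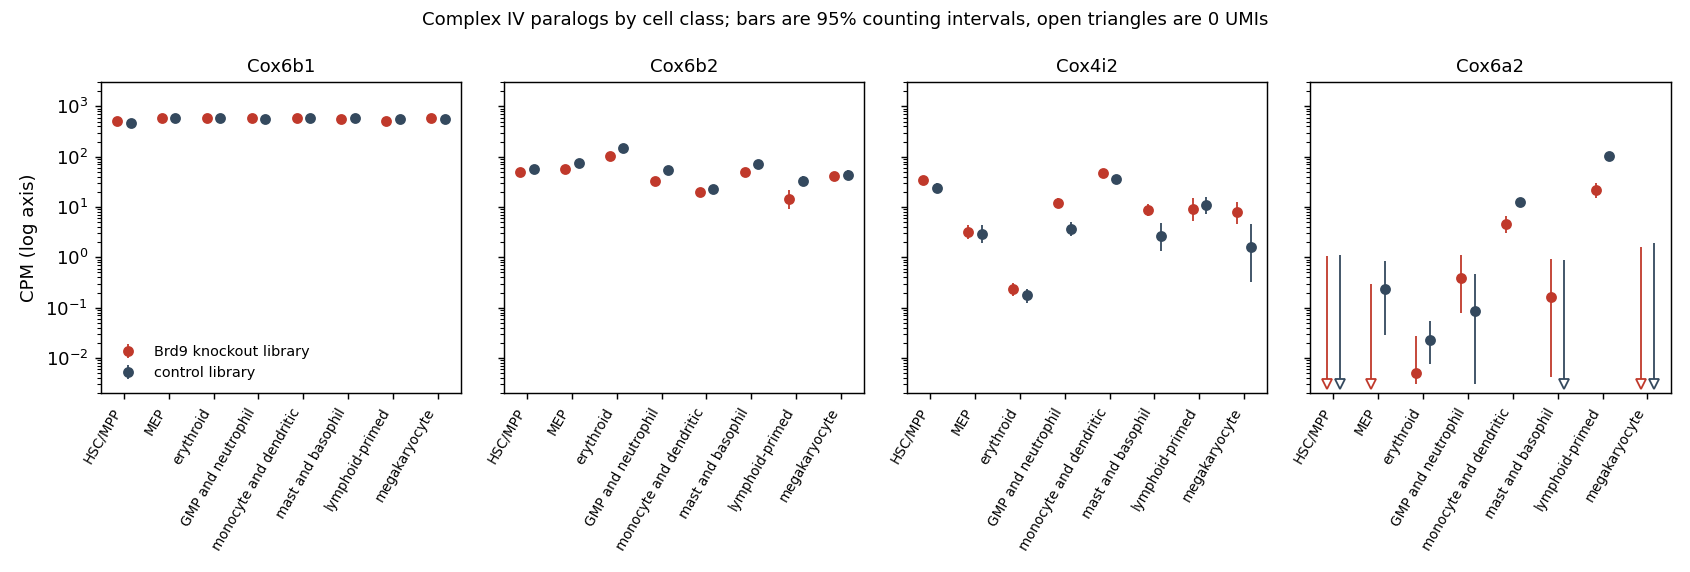
CPM of Cox6b2 and other subunit paralogs by cell class, with 1 point per library. Cox6b2 was highest in erythroid cells, at 102.2 CPM in knockout and 151.1 CPM in control cells, and Cox4i2 was highest in the monocyte and dendritic class and lowest in erythroid cells.

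Small differences had the same sign in every class for some members, at shares not far from those of all genes. Of 93 members at 20 CPM in all 5 compared classes, 16 (17.2%) were higher in the knockout in every class, against 12.3% of all genes. The 16 included the mitochondrial gene mt-Nd4l. Lower in every class were 3 (3.23%), against 4.49%. Scaled by the median of gene ratios, the counts were 8 and 8, so the smallest of these ratios depend on the scaling. Cox8a, a small subunit of complex IV, had the highest genotype ratio of the nuclear members over whole libraries, at 1261 CPM in knockout and 1165 CPM in control cells (0.11, 0.11 to 0.12). Its class ratios ran from 0.11 to 0.16, and every interval lay above 0 in each sex too. Next by the weakest class were Atp5b, the catalytic beta subunit of ATP synthase (0.06 to 0.29, highest in the GMP and neutrophil class at 924.7 and 758.5 CPM), Atp5f1, a stator subunit of complex V (0.04 to 0.08), and Cox7c of complex IV (0.04 to 0.20). The 3 lower ones were Cox6b2, Ndufa4 (-0.18 to -0.05) and the complex III subunit Uqcr11 (-0.09 to -0.01). Intervals for Ndufa4 lay below 0 in all 5 classes, and for Uqcr11 in erythroid cells alone, where it was at 602.2 and 632.8 CPM. Within female cells, the GMP and neutrophil ratio of Ndufa4 was 0.01 (-0.07 to 0.09).

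Other nuclear extremes stayed below the 0.25 limit. The complex I assembly factor Ndufaf7 was at 44.6 CPM in knockout and 41.4 CPM in control cells (0.11), and the accessory subunits Ndufb10 and Ndufv3 at 348.5 and 326.8 CPM (0.09) and 140.5 and 132.7 CPM (0.08). Cox7a2l, a factor that joins complexes III and IV into supercomplexes, was at 232.6 and 218.3 CPM (0.09). On the low side, Ndufb9 was at 452.4 and 480.6 CPM (-0.09) and Ndufa4 at 749.2 and 794.8 CPM (-0.09). The X-linked Ndufb11 was at 205.8 and 219.1 CPM (-0.09), with -0.08 in female and -0.09 in male cells. The other X-linked members, Ndufa1 (113.2 and 107.5 CPM) and Cox7b (543 and 530.6 CPM), had ratios of 0.08 and 0.03. Subunits picked for their high control counts differed little: Cox4i1 was at 1192 and 1157 CPM, Atp5g1 at 1120 and 1109 CPM, Uqcrh at 604.9 and 617.2 CPM and Ndufab1 at 479.1 and 456.5 CPM.

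In the smaller classes few members went past the limit. In HSC/MPP cells, Cox4i2, Ndufaf7 and Ndufv1 were higher (background 13.6%) and mt-Atp8 lower (8.18%). Only Cox6b2 was lower in the MEP class (background 3.87%), where 0 of 94 members were higher (5.59%). The GMP and neutrophil class had Atp5b higher (background 13%) and Cox6b2 lower (6.66%), and the monocyte and dendritic class had Cox4i2 and mt-Atp8 higher (9.31%) and Ndufaf6 lower (7.33%). Each of these shares was below the background of its class. The backgrounds hold all genes at 20 CPM or more in either library, not matched to the members for expression level.

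Between cell types, nuclear respiratory chain genes were higher in erythroid cells than in HSC/MPP cells in both libraries. Their summed share was 2.59% in knockout and 2.53% in control HSC/MPP cells, against 3.18% and 3.13% in erythroid cells, a log2 ratio of 0.30 in knockout and 0.31 in control cells. Of 82 nuclear members, 65 were higher and 13 lower in both libraries, with a median log2 ratio of 0.35 (mean of the 2 libraries), against -0.01 for all genes. Complex III led, with sums at 0.48 and 0.51, followed by the complex I assembly factors (0.41 and 0.43), complex I (0.32 and 0.31), complex V (0.27 and 0.28) and complex IV (0.24 and 0.24). Past a log2 ratio of 0.5 in both libraries, 19 of 95 members were higher, which equals 20%, near the background of 19.8%, and 4 were lower, against 26.7%. The 19 became 10 and 11 at Leiden resolutions 0.6 and 1.6, and 11 when clustering kept cell-cycle genes.

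Ndufaf4, a complex I assembly factor, was at 61.4 CPM in HSC/MPP cells of both libraries and at 131.7 and 124.4 CPM in erythroid cells (1.10 in knockout and 1.02 in control cells). Cox6b2 had log2 ratios of 1.04 and 1.41, and Uqcr11 was at 300 and 319.6 CPM in HSC/MPP and 602.2 and 632.8 CPM in erythroid cells (1 and 0.98). The complex I subunit Ndufa5 (0.96 and 0.98) and Atp5g1, one of 3 genes for the c-ring subunit of ATP synthase, followed, the latter at 619.6 and 606.8 CPM in HSC/MPP cells and 1177 and 1167 CPM in erythroid cells. A second c-ring gene, Atp5g2, went the other way (-0.34 and -0.42). The 4 lower members were Cox4i2, Cox7a2l, Ndufa4 and mt-Nd6. Cox7a2l was at 369.2 and 367.3 CPM in HSC/MPP and 229.7 and 213.5 CPM in erythroid cells, and Ndufa4 at 1078 and 1165 CPM against 700.9 and 727.3 CPM.

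Cox4i2 and Cox4i1 encode alternative forms of a complex IV subunit. Cox4i2 was at 34.2 and 24.2 CPM in HSC/MPP, 47.6 and 36.3 CPM in monocyte and dendritic cells, 12.2 and 3.68 CPM in the GMP and neutrophil class, 3.21 and 2.94 CPM in the MEP class and 0.232 and 0.175 CPM in erythroid cells. With cells thinned to 10000 UMIs, 24.8% and 19.2% of HSC/MPP cells had a Cox4i2 UMI. In erythroid cells 0.224% and 0.242% had one, below the Alb shares given above, and this was read as background. Unthinned, 38.2% and 32.4% of HSC/MPP cells had one. Cox4i1 was at 871.8 and 856.9 CPM in HSC/MPP and 1222 and 1176 CPM in erythroid cells.

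Mitochondrially encoded transcripts took a larger share of HSC/MPP cells, at 3.1% in knockout and 3.18% in control cells, than of erythroid cells (-0.39 and -0.16). Counted per cell, erythroid cells had more mitochondrially encoded UMIs (0.63 and 0.98 on the log2 scale), so the contrast in share and the contrast per cell had opposite signs. The direction of this contrast was not stable. With both classes limited to cells of 10000 to 30000 UMIs, an alternative chosen after seeing the data, it was -0.04 in knockout and 0.17 in control cells, with 136 and 132 HSC/MPP cells and 777 and 578 erythroid cells. Coarser clusters (Leiden resolution 0.6) gave -0.10 and 0.13 and finer ones (1.6) -0.19 and 0.07. The nuclear contrast kept its sign in each of these, at 0.33 and 0.35, 0.17 and 0.15 (resolution 0.6), and 0.17 and 0.15 (1.6). HSC/MPP cells had a median of 18872 and 17516.5 UMIs, less than erythroid cells. Among cells of 10000 to 30000 UMIs, 25 members were higher and 3 lower in erythroid cells past 0.5 in both libraries, against 19 and 4 among cells of any depth. Markers of endothelial cells summed to 145.2 and 186.1 CPM in the HSC/MPP class, and their part was not tested.

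The step from HSC/MPP to MEP cells differed between the genomes, and the other classes compared with HSC/MPP cells showed a similar split. From HSC/MPP to MEP cells, nuclear sums were higher by 0.22 in knockout and 0.24 in control cells, while mitochondrial sums were lower as a share of UMIs (-0.63 and -0.56). Per cell the mitochondrial sums differed little and in opposite directions, at -0.05 in the knockout and 0.15 in the control. In that step 3 members were past 0.5 upward, Ndufaf4, Ndufaf3 and Atp5g1 (background 7.37%), and 8 downward, 6 of them mitochondrial (background 15%). From MEP to early erythroid cells, nuclear sums were higher by 0.09 in knockout and 0.07 in control cells. Mitochondrial shares were lower in the knockout (-0.19) and nearly level in the control (-0.01). Per cell the mitochondrial sums were higher in this step (0.31 and 0.52). Past 0.5, Ndufaf4, Ndufa5 and Cox6b2 were higher (background 8.44%) and 0 members were lower (13.1%). The comparisons with HSC/MPP share those cells as reference. As given above, the mitochondrial contrast of erythroid with HSC/MPP cells was not stable to depth and clustering. Contrasts of the MEP, GMP and neutrophil, and monocyte and dendritic classes were not tested at limited depth or in other clusterings. In the GMP and neutrophil class nuclear sums were higher (0.201 and 0.168) and mitochondrial shares lower (-0.51 and -0.438). The monocyte and dendritic class had 0.211 and 0.235 for nuclear sums and -0.407 and -0.552 for mitochondrial shares. Per cell these mitochondrial sums were higher, at 0.052 and 0.128, and 0.159 and 0.33. Against HSC/MPP cells, the GMP and neutrophil class had Ndufb3, Ndufaf3, Uqcrq and Atp5g1 higher (background 9.72%) and Cox4i2, Cox7a2l and mt-Nd6 lower (19.3%). The monocyte and dendritic class had Cox4i1, Ndufaf3, Uqcrq and Atp5g1 higher (8.87%) and Cox6b2, Cox7a2l, mt-Nd6 and mt-Cytb lower (14.7%).

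Within the erythroid class, the mitochondrial share was higher in cells with more alpha-globin while the nuclear share was nearly level. From the early to the later group, the mitochondrial share went from 1.75% to 3.05% in the knockout and from 2.14% to 3.58% in the control, log2 ratios of 0.80 (0.79 to 0.80) and 0.74 (0.74 to 0.74). Nuclear members took 3.2% and 3.15% in the early and 3.18% and 3.12% in the later group (-0.01 and -0.02). The ratio of mitochondrial to nuclear UMIs went from 0.548 to 0.958 in the knockout and from 0.68 to 1.15 in the control. Scaled to genes other than globin, ribosomal protein and mitochondrial genes, the nuclear values were 0.05 in both libraries, so their sign depended on the scaling. Later cells had fewer UMIs, a median of 35223 and 36013 against 40922 and 44103.5 in early cells, and per cell the mitochondrial sums were still higher (0.59 and 0.46) and the nuclear sums lower (-0.22 and -0.30). Among erythroid cells of 30000 to 50000 UMIs the mitochondrial ratios were 0.75 and 0.71.

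**Figure D5:**
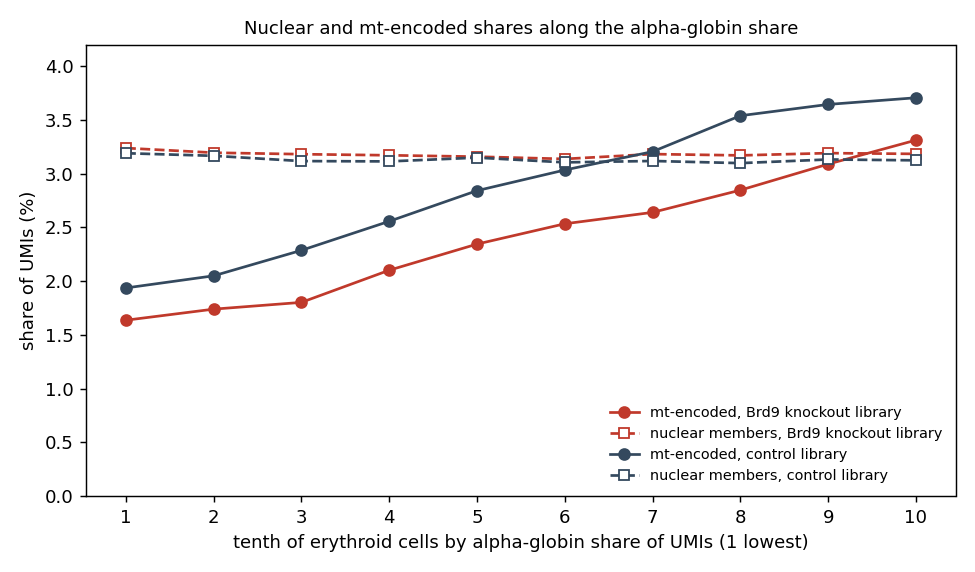
Share of UMIs (percent) of the mitochondrially encoded genes and of the nuclear members in 10 equal groups of erythroid cells ordered by alpha-globin share, 1 line per library. The mitochondrial share goes from 1.64% to 3.31% in the knockout and from 1.94% to 3.71% in the control, with the control above in each group, and the nuclear share stays between 3.1% and 3.24%.

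Of 94 members, 8 were higher in later than early cells past 0.5 in both libraries, all of them mitochondrial (background 9.31%), and 2 were lower, Ndufaf6 and Ndufaf4 (background 12.3%). The 8 were mt-Nd1, mt-Nd2, mt-Nd4, mt-Cytb, mt-Co1, mt-Co2, mt-Co3 and mt-Atp6. The level of mt-Nd2 was 849.1 and 1030 CPM in early and 1632 and 1920 CPM in later cells, the largest ratio by the weaker library (0.94 and 0.90). For mt-Co3 it was 2732 and 3521 CPM in early and 5055 and 6356 CPM in later cells (0.89 and 0.85), with mt-Co2 at 0.92 and 0.84 and mt-Cytb at 0.86 and 0.82. The other 5 differed less: mt-Nd3 (0.38 and 0.34), mt-Nd5 (0.20 and 0.11), mt-Nd6 (0.15 and 0.16), mt-Nd4l (0.12 and 0.07) and mt-Atp8 (0.11 and -0.04). The median over the 13 was 0.71, against -0.01 for the nuclear members and -0.08 for all genes.

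Complex I assembly factors were lower in later erythroid cells. Their summed share was 0.0566% in knockout and 0.0551% in control early cells and 0.0452% and 0.0431% in later cells (-0.33 and -0.36). Scaled to genes other than globin, ribosomal protein and mitochondrial genes, the ratios were -0.27 and -0.29. Of 7 factors tested, 6 were lower in both libraries, beside 3475 of 6143 of all genes. Ndufaf6 was at 54.8 and 52.6 CPM in early and 34.5 and 33.5 CPM in later cells (-0.67 and -0.65), and Ndufaf4 at 150.5 and 142.5 CPM against 104.6 and 96.8 CPM (-0.53 and -0.56). Among the structural subunits, Atp5g2 had the lowest ratio, at 715.4 and 674.7 CPM in early and 550.1 and 504 CPM in later cells (-0.38 and -0.42). Complex I subunits (0.03 and 0.04), complex III (-0.01 and -0.03), complex IV (0.02 and 0.01) and complex V (-0.06 and -0.07) differed by less than 0.1 between the groups.

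Other mitochondrial genes, from lists written with earlier results of these data known, gave a background for the members. Between genotypes, 59 of 78 mitochondrial ribosomal protein genes were higher and 19 lower in the knockout (median 0.04), with 0 past 0.25. Of 15 genes for mitochondrial transcription and RNA, 12 were higher and 3 lower (median 0.03). Tfam, which packages and transcribes the mitochondrial genome, was at 89.4 and 86.9 CPM (0.04), and Polrmt, the mitochondrial RNA polymerase, at 11.5 and 11.3 CPM. Complex II genes were 2 higher and 2 lower of 4. Of 9 nuclear regulators of mitochondrial gene programs, 6 were higher and 3 lower (median 0.06). They ran from Nfe2l2 at 82.7 and 94.7 CPM (-0.20) to the coactivator Ppargc1b at 25.3 and 21.3 CPM (0.249, 0.198 to 0.301). Of 9 mitophagy genes, 4 were higher and 5 lower (median -0.02). These ran from Bnip3l, the mitophagy receptor of maturing red cells, at 121.9 and 138.9 CPM (-0.19), to Gabarapl2 (0.08).

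From early to later erythroid cells, most genes of the lists for mitochondrial transcription, ribosomal proteins and import were lower, beside 3671 of 6281 of all genes tested in the knockout and 3775 of 6205 in the control. Of the genes for mitochondrial transcription and RNA, 1 was higher and 16 lower of 17 in the knockout, and 0 were higher and 16 lower of 16 in the control, with medians of -0.27 and -0.38. Tfam had ratios of -0.51 and -0.52. The mitochondrial ribosomal protein genes were lower in 65 of 78 in the knockout and 67 of 78 in the control (medians -0.16 and -0.20), and the protein import genes in 26 of 27 in each (-0.23 and -0.26). The mitophagy genes had 6 higher and 4 lower of 10 in each library (medians 0.19 and 0.12), with Bnip3l at 0.32 and 0.31. In erythroid against HSC/MPP cells, 74 of 78 mitochondrial ribosomal protein genes were higher in each library, with medians of 0.62 and 0.54.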

How the data were processed

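Single-cell RNA was measured in 1 knockout and 1 control library. The values are whole UMI counts per gene and barcode, as deposited by the authors with no normalization. The submitters' processing notes name Cell Ranger 7.2.0 and mm10, and the labels' protocols name the 10x Genomics 3' v3.1 chemistry. Whether introns were counted was not given there. Library totals were 271350214 and 292972312 UMIs over 7289 and 7399 barcodes.

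Cells needed at least 1000 genes, 2000 UMIs and at most 10% mitochondrial UMIs. Scrublet (expected rate 6%) marked 271 and 252 doublets, which were removed, as were 5 cells per library with over 20 UMIs of hepatocyte or fibroblast genes. Clustering (scanpy 1.11.5, leidenalg 0.10.2) used 3000 variable genes, 30 components, 15 neighbours and resolution 1, without the members, mitochondrial, ribosomal, sex-linked or cell-cycle genes or Brd9. Clusters were named from 14 marker lists in a first pass against all clusters (at least 3 markers of a list among the top 30 genes by fold) and a second against the classes of the first (at least 2, with 3 detected at 5 CPM). A cluster stayed unnamed where it had fewer, as 1 with 1 marker did, or where the T-cell gene Cd3g was among its top 10 genes, as for 1 cluster of 49 knockout and 48 control cells. The naming steps, the removal of non-blood cells and the depth-limited comparisons were chosen after seeing the data. Classes of at least 150 cells per library were compared. Mast and basophil, lymphoid-primed, megakaryocyte and unnamed cells (223, 74, 81 and 363 knockout cells) were not.

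UMIs were summed per class and library and scaled to CPM. Ratios have exact conditional 95% intervals, levels exact Poisson and cell shares exact Clopper-Pearson intervals, for counting error only. No test across samples exists with 1 library per genotype, so calls are a log2 ratio past 0.25 between genotypes, or 0.5 in the same direction in both libraries between classes and erythroid groups, at 20 CPM in either group. The ratio script was tested on simulated data. Of 32285 gene IDs, 32235 were in GENCODE M21. Named genes are all mitochondrial ones, the 3 with most counts per complex, the 5 highest and 5 lowest ratios of each comparison, those of 1 sign in all classes, tissue paralogs and X-linked members. Members were taken by symbol alone, with no measured value used. The choice of this gene group and of the 14 pathway lists was made with earlier results of these data known.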

Additional observations from a re-analysis of the deposited data

Results flagged for a closer look

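The summed mitochondrially encoded transcripts had opposite genotype ratios in different cell classes, with every class represented by the same pair of libraries. On the log2 scale, knockout over control, the ratio was -0.265 in erythroid cells, -0.106 in the MEP class and -0.108 in the GMP and neutrophil class, and 0.109 in the monocyte and dendritic class. These are ratios of shares of UMIs, and per cell the last class had 703 mitochondrially encoded UMIs in knockout and 788.7 in control cells. The difference between classes was not tested. In male cells alone the monocyte and dendritic ratio was 0.012 (-0.002 to 0.026), and in female cells alone the GMP and neutrophil ratio was 0.097 (0.080 to 0.114).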

How the results depend on the processing

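For 10 results under 24 other settings, 150 values were compared: 109 stayed within the limits set for a match (1.5 times for counts), 40 moved and 1 changed sign. The mitochondrial log2 ratio of -0.225 stayed negative in each: -0.215 at 5% mitochondrial UMIs, -0.222 with doublets kept, -0.228 without cells carrying transcripts of both sexes, -0.232 in male cells, -0.237 on non-globin scaling, -0.252 by the median of gene ratios, -0.217 by the mean of per-cell CPM and -0.221 with classes reweighted. The nuclear ratio of 0.023 was 0.036 in male cells, 0.011 on non-globin scaling and -0.004 by the median of gene ratios. Members lower over whole libraries, 3, were 5 on non-globin scaling, 6 by the median of gene ratios, 8 beyond 0.15 and 1 beyond 0.5. Members higher in every class, 16, were 10 in female cells and 8 by the median of gene ratios. Members lower in every class, 3, were 5 with doublets kept, 1 in female cells, 5 in male cells, 8 by the median of gene ratios, 6 and 5 at resolutions 0.6 and 1.6, and 7 with cell-cycle genes kept. At resolution 0.6 and with cell-cycle genes kept, the MEP cluster met the naming rule. Its top 10 genes held 0 MEP markers and 1 of another list, and the MEP class was left out of these counts. Members higher in erythroid than HSC/MPP cells, 19, were 49 beyond 0.25, 2 beyond 1, 10 and 11 at resolutions 0.6 and 1.6, and 11 with cell-cycle genes kept. Members lower there, 4, were 2 at 50 CPM, 7 beyond 0.25, 1 beyond 1, and 2 at both resolutions. Members higher in later erythroid cells, 8, were 0 beyond 1. Those lower there, 2, were 1 in female cells, 1 on non-globin scaling, 1 by the median of gene ratios, 6 beyond 0.25, 0 beyond 1 and 1 at resolution 1.6. Apart from the changed thresholds, the cause was not tested. No paired analysis was possible because each genotype has 1 library. For the same reason no replicate could be left out.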

Other observations

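Some members below 20 CPM over whole libraries had higher levels in 1 class. Cox6a2, the heart and muscle form of complex IV subunit 6A, was at 21.7 CPM (15.1 to 30.2) in knockout and 103.4 CPM (91.4 to 116.6) in control lymphoid-primed cells, from 35 and 267 UMIs, a class too small to be compared. With each cell thinned to 10000 UMIs, a Cox6a2 UMI was found in 12.3% of 73 lymphoid-primed cells of the knockout and 34.7% of 95 of the control, against 4.11% and 0% for Alb in the same cells. The 0 of 95 allows a share of up to 3.16%. In the monocyte and dendritic class Cox6a2 was at 4.59 and 12.4 CPM, and HSC/MPP cells had 0 UMIs in both libraries. Within the lymphoid-primed class, its own markers summed to 1611 and 1565 CPM, and those of monocyte and dendritic cells to 108.5 and 264.5 CPM. The part of this mix of cells in the Cox6a2 values was not tested.

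Ndufa4l2, the paralog of Ndufa4, had 375 UMIs in knockout and 843 in control erythroid cells, or 1.85 and 3.89 CPM. Thinned shares of erythroid cells with a Ndufa4l2 UMI were 1.55% and 3.19%, against 0.55% and 0.767% for Alb. Cox7b2, Cox8b and Cox8c had at most 4 UMIs in either library. Ndufb1-ps, left out by its name, was at 340.1 and 344.3 CPM (log2 ratio -0.02).

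Outside the respiratory chain, 13 of 14 glycolysis genes were higher and 1 lower in the knockout over whole libraries (median 0.15), beside 4050 of 6223 of all genes higher. Past 0.25 were 4 upward and 1 downward, against backgrounds of 2.19% and 2.27%, and in the MEP class the list had 8 higher and 5 lower (median 0.02). Among those past 0.25, Pkm was at 320.3 and 223.3 CPM (log2 ratio 0.52), Pfkp had a ratio of 0.72 and Pfkm of -0.32. The adult beta-globin gene Hbb-bt was at 293.6 CPM in knockout and 1128 CPM in control cells (-1.94), while its neighbour Hbb-bs was at 1265 and 1074 CPM (0.24). Reads of these near-identical genes can be split between them, and whether the embryos of both libraries carried the same beta-globin haplotype was not tested, so neither ratio can be read as a change of that gene alone. Of 20 complex IV assembly factors, 12 were higher and 8 lower, with Cox20 highest at 107.3 and 91.1 CPM (0.24). The ubiquinone synthesis gene Coq7, at 101.3 and 88.4 CPM (0.20), was highest among 12 electron carrier genes, of which 10 were higher and 2 lower.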
